A study of Mus musculus with 2 samples.

Results

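Interferon-induced gene families were read out in granulocyte-monocyte progenitors, the bone marrow cells committed to making granulocytes and monocytes. Members are the protein-coding genes whose symbols name them as Ifit, Ifitm, Oas, Gbp, Isg, Irgm, Iigp, Mx1 or Mx2, Ifi followed by a digit, Rsad2 or Usp18. Of 61 such genes in the GENCODE M21 annotation, 58 were found by identifier in both gene tables, among 21474 protein-coding genes and 43346 annotated genes in all. Gbp5, Gbp6 and Gbp10 had no gene entry of their own under these identifiers. The entry with the identifier of Gbp2b holds a Gbp5 transcript in the deposited tables, and all of its reads were assigned to that transcript, so it is called the Gbp2b entry here. The study holds 1 group: 2 total RNA libraries of primary progenitors from adult male C57BL/6J mice aged 5 to 6 weeks, with no treatment named in the labels. Each library began with 100 ng of RNA depleted of ribosomal RNA, with a size range of 200 to 712 for replicate 1 and 200 to 1000 for replicate 2 (no unit given). The labels call the libraries biological replicates and tie both to the same donor record, so the spread between them may be partly technical. Without a stimulated or an interferon-deficient group there is no test between conditions, and no p-value is given.

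Interferons are cytokines released on viral or bacterial sensing. Type I interferons bind Ifnar1 and Ifnar2, and type II interferon binds Ifngr1 and Ifngr2; Jak kinases then activate transcription factors that bind a paired GAAA element near the start of responsive genes. The induced proteins act in the cell: Ifitm proteins hinder fusion of viruses with endosomes, Ifit proteins bind viral RNA ends, Oas enzymes make 2'-5' oligoadenylate on sensing double-stranded RNA, Gbp and immunity-related GTPases attack membranes around pathogens, and Ifi200 proteins bind DNA.

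Promoter sequence was taken from RefSeq (GRCm38.p6), which held 54 promoters for 45 of the 58 members, each with 250 bases before and 50 after the annotated start. The motif searched was GAAANNGAAA on either strand, which reads TTTCNNTTTC on the reverse strand, and overlapping matches were each counted. The windows below give the 200 bases before the start, 5′ to 3′ on the gene's own strand, with every match in capitals. Ifitm2 (chr7:140955962-140956161, minus strand) and Gbp3 (chr3:142559844-142560043, plus strand) are shown because they were among the 3 most abundant members. Oas1a (chr5:120907526-120907725, minus) and Oas1g (chr5:120887614-120887813, minus) are near copies that differed in estimated level. Ifit3 (chr19:34583329-34583528, plus) and Ifit3b (chr19:34607757-34607956, plus) are another such pair. Isg15 (chr4:156200819-156201018, minus) held the most overlapping matches of these and little RNA. Ifit1 (chr19:34640689-34640888, plus) shares its 2 matches with the neighbouring Ifit1bl2, which is read in the other direction.
Ifitm2: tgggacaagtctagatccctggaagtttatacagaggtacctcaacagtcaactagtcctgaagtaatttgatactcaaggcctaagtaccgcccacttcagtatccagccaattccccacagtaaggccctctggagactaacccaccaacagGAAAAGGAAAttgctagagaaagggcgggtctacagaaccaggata
Gbp3: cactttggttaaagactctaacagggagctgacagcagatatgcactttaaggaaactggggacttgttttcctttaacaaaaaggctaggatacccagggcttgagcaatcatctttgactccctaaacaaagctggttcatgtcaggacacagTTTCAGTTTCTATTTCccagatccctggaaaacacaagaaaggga
Oas1a: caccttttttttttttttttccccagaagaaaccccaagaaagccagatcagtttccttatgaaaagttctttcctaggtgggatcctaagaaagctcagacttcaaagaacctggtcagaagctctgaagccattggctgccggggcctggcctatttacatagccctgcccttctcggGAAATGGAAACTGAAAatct
Oas1g: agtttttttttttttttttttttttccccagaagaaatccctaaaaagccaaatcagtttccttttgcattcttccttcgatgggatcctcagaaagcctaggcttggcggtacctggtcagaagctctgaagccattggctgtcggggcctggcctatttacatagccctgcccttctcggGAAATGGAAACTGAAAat
Ifit3: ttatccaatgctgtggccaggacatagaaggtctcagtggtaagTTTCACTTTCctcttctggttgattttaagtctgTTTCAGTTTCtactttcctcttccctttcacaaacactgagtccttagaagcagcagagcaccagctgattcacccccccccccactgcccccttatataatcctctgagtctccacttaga
Ifit3b: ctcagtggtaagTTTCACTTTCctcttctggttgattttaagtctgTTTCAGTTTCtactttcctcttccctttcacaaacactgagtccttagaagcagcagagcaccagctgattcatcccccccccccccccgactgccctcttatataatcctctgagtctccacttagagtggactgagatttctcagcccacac
Isg15: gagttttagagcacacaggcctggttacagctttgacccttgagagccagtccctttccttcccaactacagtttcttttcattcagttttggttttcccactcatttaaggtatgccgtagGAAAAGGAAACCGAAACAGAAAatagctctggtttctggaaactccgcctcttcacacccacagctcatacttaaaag
Ifit1: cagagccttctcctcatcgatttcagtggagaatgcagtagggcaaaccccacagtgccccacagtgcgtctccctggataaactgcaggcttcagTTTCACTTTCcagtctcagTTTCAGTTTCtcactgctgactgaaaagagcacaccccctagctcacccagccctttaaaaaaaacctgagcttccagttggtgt

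Counting the base before the start as -1, the match began at -46 in Ifitm2, and the overlapping matches of Gbp3 began at -45 and -39. The matches of Oas1a began at -20 and -14, and those of Oas1g at -18 and -12, in the same stretch of letters. Over the aligned part of these windows Oas1a and Oas1g were identical at 171 of 198 positions (86.4%). Ifit3, with matches at -156 and -122, and Ifit3b, with matches at -188 and -154, were identical at 167 of 174 aligned positions (96.0%). Isg15 had 3 overlapping matches, at -78, -72 and -66. The matches before Ifit1, at -104 and -85, lie at -51 and -70 of Ifit1bl2.

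Most of the interferon-family RNA in these progenitors came from a few genes: Ifitm2, Ifi209 and Gbp3 held 55.8% of the members' summed TPM in replicate 1 and 52.0% in replicate 2. TPM, the deposited transcript level scaled by length and depth, is used wherever genes are compared. Members at or above 1 TPM in both libraries are called basal here, those below 0.1 TPM in both near zero, and the others in between; these bounds were set for description. Of the 58 members, 20 (34.5%) were basal, against 40.9% of all protein-coding genes. A further 23 (39.7%) were in between, against 13.4% of protein-coding genes, and 15 (25.9%) were near zero, against 45.7%. Only 5 members reached 10 TPM in both libraries, where 14.3% of protein-coding genes did. Median member TPM was 0.18 and 0.27 in replicates 1 and 2, beside 0.17 and 0.20 TPM over all protein-coding genes.

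Summed over members, TPM was 218.8 in replicate 1 and 264.8 in replicate 2, or 0.115% and 0.116% of the TPM of nuclear protein-coding genes. Expected counts, the estimated number of reads per gene, summed to 43675 and 43248. Basal members held 96.2% of these counts in replicate 1 and 96.0% in replicate 2, with at least 186 and 123 counts each. The 15 near-zero members held 17 counts in replicate 1 and 39.3 in replicate 2 between them. Effective length did not order the classes the same way in both libraries: its median was 1710 and 1622 nt for basal members and 1538 and 1704 nt for near-zero members. Library depth was 49473848 and 44260902 expected counts.

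The lower class depended on the library used. With replicate 1 alone 27 members lay below 0.1 TPM, and with replicate 2 alone 16 did, against 15 in both. The deposited TPM is scaled over every entry of the tables, small RNAs included, so that levels of coding genes are low: rescaled over nuclear protein-coding genes, TPM was 5.25 times higher in replicate 1 and 4.38 times in replicate 2, and the classes held 26, 20 and 12 members. Close to the upper bound lay Oasl2 (1.51 and 1.12 TPM), the lowest basal member, and Irgm2 (1.24 and 0.99 TPM), just outside. Close to the lower bound lay Ifi214 (0.01 and 0.06 TPM) inside and Gbp8 (0.00 and 0.10 TPM) outside.

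**Figure D1:**
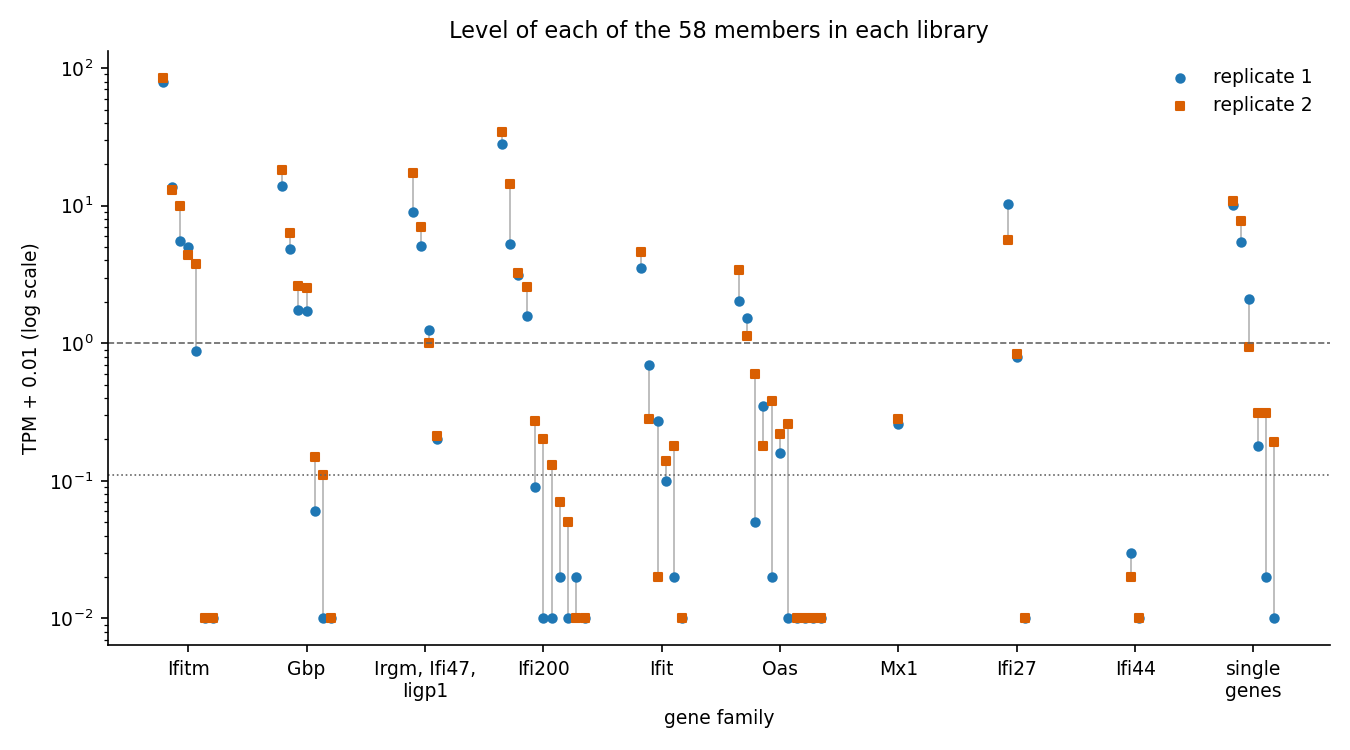
Level of each of the 58 members in each library by family, as TPM + 0.01 on a log axis; circles are replicate 1, squares replicate 2, grey lines join the 2 values of a gene, and the dashed and dotted lines mark 1 and 0.1 TPM plus the same 0.01. Ifitm2 stands highest at 79.9 and 85.2 TPM, and the longest grey lines belong to genes below 1 TPM.

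The 7 Ifitm genes contributed the most RNA per length, with 104.9 TPM in replicate 1 and 116.2 TPM in replicate 2, or 47.9% and 43.9% of the members' sum. Ifitm2, whose product restricts virus entry at endosomes, measured 79.9 and 85.2 TPM (82.5 ± 3.72, SD, n = 2). Ifitm3, the family member best known for limiting influenza virus, measured 13.6 and 13.1 TPM (13.4 ± 0.375). These were the top and the fourth of all members by mean TPM, and in both the deposited TPM differed by little between libraries. Rescaled over nuclear protein-coding genes, both were lower in replicate 2: 419.1 and 372.9 TPM for Ifitm2, and 71.4 and 57.3 TPM for Ifitm3. Ifitm6 measured 5.57 and 9.91 TPM and Ifitm1 4.97 and 4.36 TPM. Ifitm7, alone on chromosome 16, was in between at 0.87 and 3.73 TPM, and it overlaps another coding gene on the opposite strand. Ifitm5, known from bone-forming cells, and Ifitm10 had 0 counts in both libraries. Ifitm transcripts are short, and the family held 15.8% and 12.8% of the members' expected counts.

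Among guanylate-binding proteins, large GTPases that coat pathogen vacuoles, the basal entries all lay on chromosome 3. The 4 entries there included Gbp7, Gbp3 and Gbp2 (chr3:142530342-142638008, mm10, spanning 107.7 kb), and all 4 were basal. Gbp3 measured 14.0 and 18.2 TPM (16.1 ± 2.96, SD, n = 2), Gbp7 4.84 and 6.31 TPM, and Gbp2 1.73 and 2.58 TPM. The Gbp2b entry measured 1.72 and 2.51 TPM, and its 706 and 789 counts were all on Gbp5-201, which M21 places in Gbp5 (chr3:142493978-142522344), next to these genes; Gbp2b-201 itself had 0 counts in both libraries. Each of the 4 was higher in replicate 2 in TPM. None of the 3 matched genes on chromosome 5 (chr5:105014150-105139586, spanning 125.4 kb) was basal. Gbp9 measured 0.05 and 0.14 TPM from 17 and 39 counts, Gbp8 had 0 and 15 counts, and Gbp4 had 0 counts in both. The annotations of these 3 genes overlap on the same strand, so reads between them may be divided by the estimator, and the family is incomplete without Gbp6; Gbp10-201, held by another gene's entry, had 0 counts in both.

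The immunity-related GTPases, which act on vacuoles of intracellular pathogens, had no near-zero member. Ifi47 measured 9.02 and 17.3 TPM (13.2 ± 5.84, SD, n = 2), from 1935 and 2835 counts. Irgm1, a regulator of the other GTPases and of autophagy, measured 5.05 and 6.95 TPM (6.00 ± 1.34). Both lie on chromosome 11, and Ifi47 shares part of its annotated span with the odorant receptor gene Olfr56 on the same strand. Irgm2, a second regulator, measured 1.24 and 0.99 TPM and overlaps Igtp on the same strand. Iigp1, an effector that loads onto vacuoles, was in between at 0.19 and 0.20 TPM. Mx1, a dynamin-like GTPase that blocks influenza virus and is defective in C57BL/6 mice, stood at 0.25 and 0.27 TPM from 91 and 80 counts.

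The 11 Ifi200 genes, which encode DNA-binding proteins with HIN domains, lie in 1 cluster (chr1:173468485-174031810, mm10, 563.3 kb) and covered the full range of levels. Ifi209 was the second most abundant member at 28.2 and 34.3 TPM (31.2 ± 4.33, SD, n = 2), from 10803 and 10616 counts, more counts than any other member. Ifi203 measured 5.23 and 14.3 TPM (9.76 ± 6.40), the widest spread in TPM of any member. Its counts differed less, at 2139 and 3231. Ifi211 measured 3.14 and 3.22 TPM and Ifi204, a mouse relative of human IFI16, 1.58 and 2.55 TPM. Of these 4 basal genes, Ifi204, Ifi211 and Ifi203 are neighbours among the members, and Ifi209 stands apart from them, between low ones. Ifi207 measured 0.08 and 0.26 TPM, Ifi205 0 and 29.5 counts, and Ifi213 0 and 13 counts. Ifi214 had 5 and 27.3 counts, Ifi206 0 and 9, Ifi208 2 and 0, and Ifi202b, known from lupus-prone strains, 0 in both. Genes of this cluster are close paralogs, and Ifi203 and Ifi211 overlap Mndal on the same strand, so their division is uncertain.

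Of the 6 Ifit genes, which share 1 cluster (chr19:34550694-34650009, mm10, 99.3 kb), Ifit2 alone was basal, at 3.49 and 4.61 TPM (4.05 ± 0.792, SD, n = 2) from 1834 and 1856 counts. The product of Ifit2 binds AU-rich RNA. Ifit3, a partner of the other Ifit proteins, measured 0.69 and 0.27 TPM from 156 and 46 counts. Ifit3b, its near copy, had 0 counts in both libraries. Ifit1, which binds RNA lacking cap methylation, had 5 and 46 counts, whereas its divergent neighbour Ifit1bl2 had 115 and 4. The 115 counts of the Ifit1bl2 entry were on a transcript that M21 does not hold, and the 4 on another transcript of the entry. Ifit1bl1 was even, with 27 and 29 counts.

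The 11 Oas genes had 2 basal members and summed to 4.08 and 6.09 TPM. Oas1a, an active synthetase, measured 2.03 and 3.38 TPM (2.71 ± 0.955, SD, n = 2), and Oasl2 measured 1.51 and 1.12 TPM (1.32 ± 0.276). Oas3, which senses long double-stranded RNA, was in between at 0.15 and 0.21 TPM from 97 and 105 counts. Oas1g, whose promoter window resembles that of Oas1a, had 1.27 and 52.9 counts, beside 500.73 and 631.06 for Oas1a. Fractional counts come from reads shared with other features, and the estimator may have divided reads between these near copies. All Oas1g counts were on Oas1g-203, a form typed as nonsense-mediated decay, and the coding Oas1g-201 had 0 in both libraries. Oas1c had 11 and 71 counts and Oas2 0 and 17. Oasl1, a repressor of Irf7 translation, had 44 and 9. Oas1d, known from oocytes, Oas1e, Oas1f and Oas1h had 0 counts in both libraries.

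**Figure D2:**
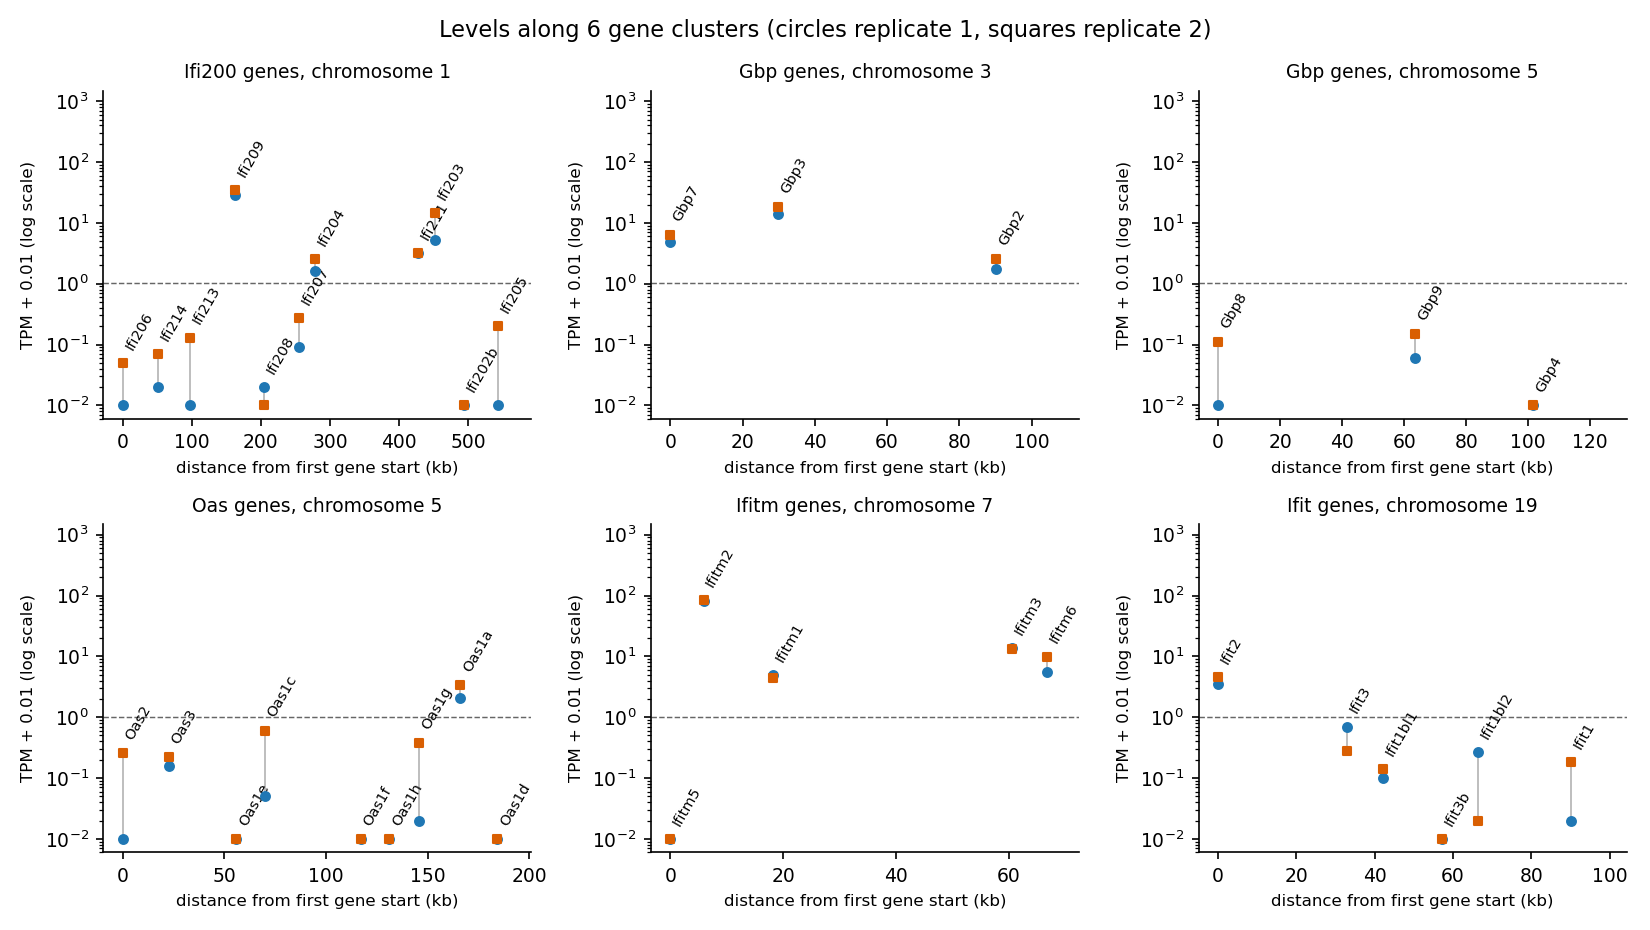
TPM + 0.01 (log axis) of members along 6 gene clusters against distance in kb from the start of the first gene; circles are replicate 1, squares replicate 2, and the dashed line marks 1 TPM plus 0.01. Gbp7, Gbp3 and Gbp2 on chromosome 3 lie above the line and all 3 Gbp genes of chromosome 5 below it (the Gbp2b entry, whose reads lie on a Gbp5 transcript, is not drawn), while the Ifi200, Oas, Ifitm and Ifit clusters hold genes on both sides.

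The members outside these families ranged from about 10 TPM to traces. Isg20l2 measured 10.1 and 10.8 TPM (10.4 ± 0.474, SD, n = 2); it carries the name of the exonuclease Isg20 but is known for ribosomal RNA processing. Ifi35, which binds the interferon-induced protein Nmi, measured 5.45 and 7.78 TPM. Ifi27, a mitochondrial protein gene, measured 10.4 and 5.63 TPM, with a retained-intron form leading in both libraries. By contrast, several genes commonly used to score an interferon response were low. Isg15, the ubiquitin-like modifier, had 1 and 18 counts (0.01 and 0.30 TPM), and Usp18, the protease that removes it and dampens receptor signalling, 38 and 53 counts (0.17 and 0.30 TPM). Rsad2, which makes a chain-terminating nucleotide, had 1 and 73 counts. Isg20 measured 2.08 and 0.93 TPM. Ifi27l2a measured 0.78 and 0.82 TPM from 32 and 23 counts, and Ifi27l2b had 0 counts. Ifi44 had 10 and 3 counts and Ifi44l none.

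In all, 11 members had 0 expected counts in both libraries: Gbp4, Ifi202b, Ifi27l2b, Ifi44l, Ifit3b, Ifitm5, Ifitm10, Oas1d, Oas1e, Oas1f and Oas1h. With 0 counts seen, a true level of up to 3 counts is possible, which for these genes is 0.00477 to 0.0674 TPM in replicate 1 and 0.00621 to 0.0983 TPM in replicate 2. Such limits and the intervals below cover counting error only; the labels name no molecular identifiers. Another 5 members had 0 counts only in replicate 1 (Oas2, Gbp8, Ifi205, Ifi206, Ifi213) and 1 only in replicate 2 (Ifi208). In bulk RNA, fewer cells with a transcript and less of it per cell cannot be told apart.

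Ratios of replicate 2 to replicate 1 were taken as log2 CPM, counts scaled to library size, with scaling by the trimmed mean of M values, over the 40 members and 11857 protein-coding genes with a mean of at least 10 counts. More than 1 log2 unit apart were 9 members higher in replicate 2, where 6.14% of all protein-coding genes were, and 4 higher in replicate 1, where 5.94% were. Of these 13, 12 were in between and 1 near zero; since the classes are set by the levels in both libraries, this split by class is a description only. The median size of the log2 ratio was 0.46 for members and 0.24 for protein-coding genes. Members had fewer counts than many of those genes, and were not matched to them gene by gene on counts. In the mean count range of the in-between members, 33.8% of protein-coding genes passed 1 log2 unit, beside 12 of these 19 members. In the mean count range of the basal members, 2.36% did, beside 0 of 20. The widest basal ratios were -0.81 for Ifi27, 0.71 for Ifi203, 0.67 for Ifi47 and -0.62 for Ifitm1.

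Within the Ifit and Oas families the differences ran in both directions. Higher in replicate 2 were Rsad2 (log2 ratio 4.72), Oas1g (4.27), Ifi205 (4.01), Ifit1 (2.88), Oas1c (2.60), Ifi214 (2.15), Ifitm7 (2.00), Ifi207 (1.60) and Gbp9 (1.22). Higher in replicate 1 were Ifit1bl2 (-4.19), Oasl1 (-1.96), Ifit3 (-1.60) and Isg20 (-1.14). Ifitm7 had the most counts of these, with 94 and 353 counts and a CPM ratio of 4.07 (95% exact counting interval 3.24 to 5.17). For Oas1c the CPM ratio was 7.0 (3.69 to 14.7) and for Ifit1 9.98 (3.98 to 32.2). Ratios that rest on about 1 count in replicate 1 have very wide intervals: 79.2 (13.8 to 3169) for Rsad2, 57.5 (9.88 to 2312) for Oas1g and 19.5 (3.08 to 813.2) for Isg15. The ratio and interval of Oas1g do not cover how reads shared with its near copy were divided. Against the limit of 3 counts in replicate 1, Ifi205 was at least 10.5-fold higher in replicate 2, Oas2 at least 6.15-fold and Gbp8 at least 5.42-fold, with the replicate 2 count taken as exact; the lower ends of the exact 95% counting intervals were 7.99, 4.47 and 3.89. Isg15, Oas2 and Gbp8 had a mean below 10 counts and so are not among the members counted as apart. With a mean of at least 50 counts required, 5 members in place of 13 stood more than 1 log2 unit apart. Oas1c, Oasl1, Oas2, Ifitm7, Ifi214 and Ifit1bl2 overlap genes on the opposite strand, and no source used here says whether counting used strand.

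All 6 markers of granulocyte-monocyte progenitors were at or above 1 TPM in both libraries, led by the granule protein genes Mpo (2552 and 2288 TPM) and Elane (804.5 and 721.5 TPM). Fcgr3 measured 102.5 and 117.3 TPM, Cd34 51.5 and 61.1 TPM, Fcgr2b 20.8 and 33.7 TPM and the cytokine receptor gene Kit 20.4 and 23.8 TPM. None of the 8 genes that such sorting gates exclude was, and they summed to 1.25 and 1.07 TPM, with Ly6a, Cd3e and Cd8a at 0 counts in both. Of 6 markers of plasmacytoid dendritic cells, the main producers of type I interferon, Siglech and Klk1 were at 0 counts in both and the sum was 13.5 and 20.0 TPM. Nearly all of that sum came from Bst2 (9.67 and 14.4 TPM), which also stands in the list of interferon-induced genes, and Tcf4 (3.61 and 5.5 TPM), both named with their values already seen. The sums in replicates 1 and 2 were 31.0 and 40.7 TPM for 6 mature neutrophil genes, led by Csf3r (16.2 and 21.3 TPM). They were 13.4 and 15.5 TPM for 6 genes of mature monocytes. At or above 1 TPM in both libraries were 5 of these 6 neutrophil genes and 4 of these 6 monocyte genes. For 6 genes of T and NK cells the sums were 0.20 and 0.97 TPM, with Cd3e, Cd3g and Trac at 0 counts in both. For 5 erythroid genes they were 0.38 and 0.83 TPM. The 6 stem cell genes, with Fgd5 and Ly6a at 0 counts in both, summed to 0.90 and 1.07 TPM and the 5 B cell genes to 0.00 and 0.02 TPM; of the latter, Cd79a, Ms4a1, Pax5 and Ebf1 had 0 counts in both. The part of such cells in the values of the families was not tested.

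**Figure D3:**
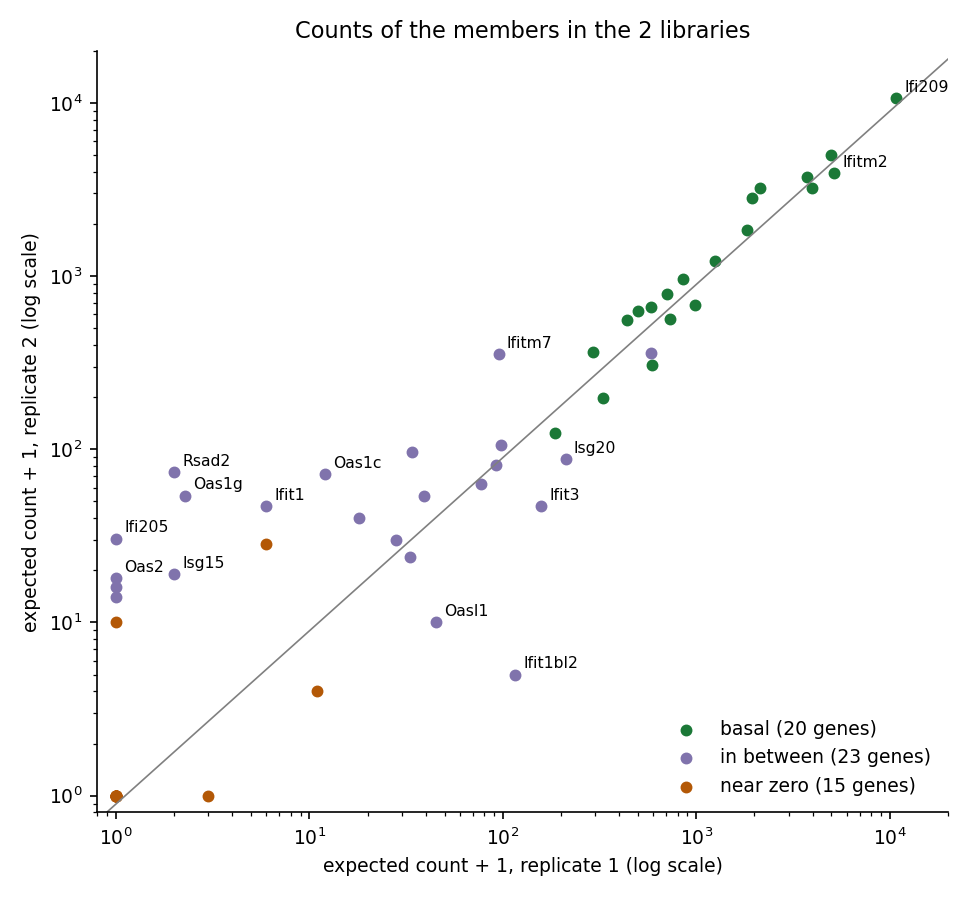
Expected count + 1 of each member in replicate 1 (x) and replicate 2 (y), both on log axes, coloured by class; the line marks equal counts after allowing for library size. The 20 basal genes lie near the line, with Ifi209 at the top, and the genes in between spread to both sides of it, from Rsad2 (1 and 73 counts) to Ifit1bl2 (115 and 4 counts).

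The paired GAAA motif was common in promoters of every class. At least 1 match lay within a 300-base promoter of 27 of 45 members (60%, exact 95% interval 44.3 to 74.3), against 1079 of 27025 genes of the whole table (3.99%) and 3.44% of all 32851 promoters. By class, 10 of 18 basal members had it (55.6%, 30.8 to 78.5), 13 of 16 in between (81.3%, 54.4 to 96.0) and 4 of 11 near zero (36.4%, 10.9 to 69.2). The class intervals overlap, and family members with related promoters are not independent. The basal class here includes the Gbp2b promoter, although the reads of that entry lie on a Gbp5 transcript. With each transcript placed by its M21 gene, 55.6% of basal and 46.2% of near-zero genes had the motif. Match and level did not run in parallel for every gene. As examples, Ifi209, Ifi47 and Isg20l2 had no match in this window at up to 34.3 TPM. Isg15, Rsad2 and Ifit1 had matches at no more than 0.30 TPM. Other genes went the other way: Ifitm2 and Gbp3 were high with a match, and Ifi44l, Ifitm5, Oas1f and Oas1h were at 0 without one. With the shorter core AANNGAAA, which lies inside the longer motif, the shares were 77.8% of basal, 93.8% of in-between and 81.8% of near-zero members, against 26.7% of all genes, so the order of basal and near zero turned. It also turned with the classes set from replicate 1 alone, where 55% of basal and 65% of near-zero members had the longer motif. Members' promoters held a median of 3, 3.67 and 3 CpG in these classes, beside 7 over all genes. The matches of Ifitm3 began after the start, at 3 and 20.

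**Figure D4:**
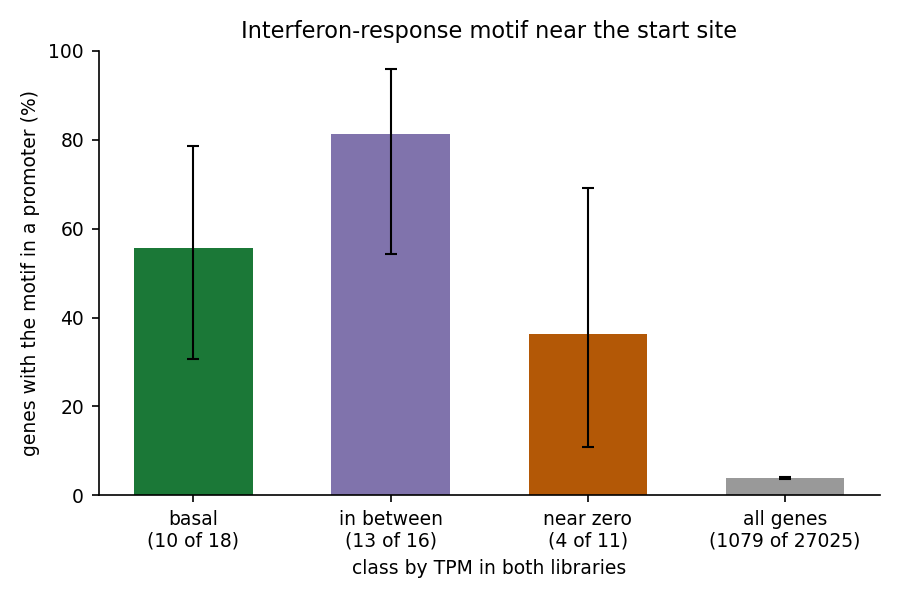
Percent of genes with at least 1 match of the interferon-response motif in a promoter of 300 bases, by class and for all genes of the RefSeq table; bars start at 0 and lines are exact 95% binomial intervals. All 3 classes, at 36.4% to 81.3%, stand above the 3.99% of all genes, and their own intervals overlap. Classes follow the deposited entries, so the Gbp2b promoter counts as basal.

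Transcript shares, given in the deposited tables as percent of each gene, show which forms the basal members used. Of the 20, 6 had 1 annotated transcript and 14 several. The leading transcript by mean share was coding in 19. The same transcript led in both libraries in 12 of the 14, but it held at least 80% in both libraries in only 5 of those 14. Ifi47 was steady, with its main form at 97.5% and 98.4%. Gbp3 was divided in replicate 1 between Gbp3-202 (48.4%) and Gbp3-203 (51.6%), and in replicate 2 all of it was assigned to Gbp3-202, though the gene's counts of 4999 and 5020 hardly differed. Ifi203 was led by Ifi203-203 in replicate 1 (43.4%, then 2.36%) and by the short noncoding form Ifi203-208 in replicate 2 (0%, then 36.2%). That form is 444 nt long and had 133.5 counts, and short forms weigh more in TPM than in counts. For Ifi27 the leading form was the retained intron Ifi27-209, at 63.4% and 48.1%. A second retained intron, Ifi27-206, held 31.7% and 9.72%, and the coding Ifi27-201 held 0% and 20.3%. Oasl2-207, a coding form of 632 nt, held 81.0% and 59.3%. These shares are estimates from short reads that several forms share.

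**Figure D5:**
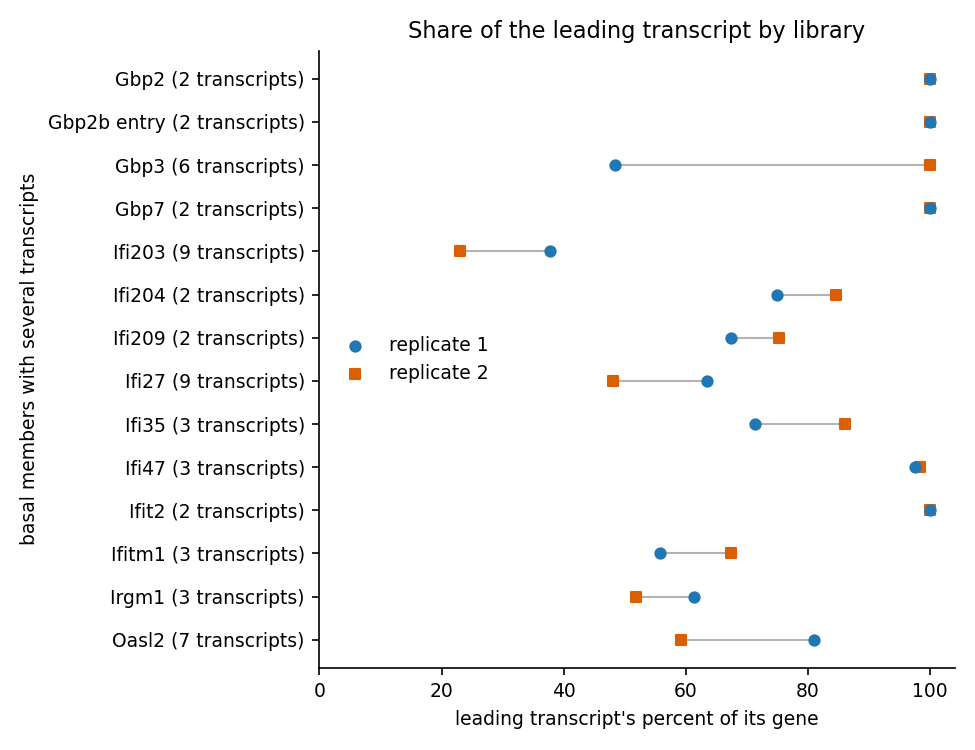
Percent of its gene held by the leading transcript (highest mean share) in the 14 basal members with several annotated transcripts; circles are replicate 1, squares replicate 2, and grey lines join them. Gbp3 spans 48.4% to 100%, whereas Ifi47 stays at 97.5% and 98.4%.

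Most of the listed receptor and signalling genes were present, while the 11 interferon genes looked up had few or no counts. Of 18 receptor and signalling genes, 14 were at or above 1 TPM in both libraries, against 40.9% of all protein-coding genes. Below 0.1 TPM in both were 0, against 45.7%, but Ifnlr1 (0.10 and 0.04 TPM) lay at the bound. The receptor chain Ifngr1 measured 70.9 and 82.2 TPM and Ifnar2 27.3 and 27.0 TPM. Jak1 measured 10.3 and 13.6 TPM, Irf3, which switches on interferon genes, 11.4 and 17.1 TPM, and the phosphatase Ptpn2, a brake on Jak signalling, 21.3 and 23.4 TPM. Of these 11 interferon genes, 10 had 0 counts in both libraries: Ifnb1, Ifng, Ifna1, Ifna2, Ifna4, Ifna5, Ifnk, Ifne, Ifnl2 and Ifnl3. The remaining one, Ifnz, had 19 and 6.67 counts (0.10 and 0.05 TPM). Nucleic acid sensors, which act before interferon is made, had 9 of 12 genes at or above 1 TPM in both, with the DNA sensor Aim2 at 15.9 and 21.4 TPM.

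Interferon-induced genes outside the families were basal in 25 of 34 cases, beside 20 of the 58 members and 40.9% of all protein-coding genes. Near zero were 0 of 34, with Cxcl9 (0.10 and 0.05 TPM) at the bound, beside 15 members and 45.7% of protein-coding genes. The 34 were picked gene by gene, whereas the members follow a symbol rule that takes in paralogs at any level. The lists are therefore not alike, and no test was made. The highest of the 34 was Ly6e, a cell surface protein gene, at 129.8 and 196.4 TPM. Genes of antigen processing followed: the immunoproteasome subunits Psmb8 (78.3 and 84.7 TPM) and Psmb9 (27.7 and 24.1 TPM) and the peptide transporter Tap1 (17.7 and 19.3 TPM). Samhd1, which depletes deoxynucleotides, measured 15.3 and 20.8 TPM, the nuclear body gene Sp100 15.5 and 16.2 TPM, the galectin gene Lgals9 16.7 and 16.2 TPM and Nmi 11.7 and 10.5 TPM. Apart from Ifitm2, Ifi209, Gbp3 and Ifitm3, the one member at this level in both libraries was Isg20l2.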

How the data were processed

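The 2 total RNA libraries of 1 group were analysed from gene and transcript tables. Expected counts per feature were deposited by the authors, and so were TPM, posterior mean TPM, FPKM and, for transcripts, the percent of the gene; TPM and FPKM are scaled over all entries of a table. Bounds of a credibility interval came with them. Per the labels, RNA was rRNA-depleted and libraries were built with ScriptSeq. The deposited metadata give mm10 and GENCODE M4; aligner and quantifier: not given in the sources used here. Symbols and gene types came from GENCODE M21 by identifier, and promoters from RefSeq (GRCm38.p6). Mx2, Oas1b, Gbp11 and Ifi30 match by symbol but are not typed protein-coding.

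Classes used 1 and 0.1 TPM. Ratios between libraries used rounded expected counts, edgeR 4.0.16 in R 4.3.3 (factors 0.985 and 1.02, prior count of 2) and genes with a mean of at least 10 counts. This step was run on simulated libraries with known changes. Their spread was set smaller than that between these libraries, so the run checks the calculation only. DESeq2 1.42.0 size factors, other thresholds, units and each library alone were alternatives. With 1 group no test was made. Every member is named; genes of other lists are named at or above 10 TPM in both libraries or at 0 in both, and some list genes are not reported here. Members and lists were chosen with earlier results of these data known.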

Additional observations from a re-analysis of the deposited data

How the results depend on the processing

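Of the alternative values, 48 stayed within the limits set (1.5 times for a count, otherwise the SD or the exact interval) and 11 moved; the interval of a share is wide. With 5 TPM in place of 1 TPM, 11 members and 15 induced genes outside the families passed in both libraries, in place of 20 and 25. With 0.5 TPM in place of 0.1 TPM, 32 members counted as near zero in place of 15; with 1 library left out the count ran from 16 to 27, the latter without replicate 2. The median log2(TPM + 1) of members was 0.29; it was -1.64 with a pseudocount of 0.1, 0.68 on FPKM, 1.04 on TPM rescaled over nuclear protein-coding genes and 1.08 with near-zero members left out. Ifitm genes held 45.9% of the members' TPM and 14.3% of their expected counts. With a mean of at least 50 counts, 5 members in place of 13 stood more than 1 log2 unit apart; with no filter 19 did. With the shorter core, 81.8% of near-zero members with a promoter had the motif in place of 36.4%; from replicate 1 alone 65% had the longer one. With each transcript placed by its M21 gene, an alternative chosen after seeing the data, 60 genes gave 20 basal and 18 near zero, 12 stood apart, and 55.6% and 46.2% of basal and near-zero ones had the motif. DESeq2 size factors and library totals left 13 members apart. No paired analysis was possible because there is 1 group. Low counts limit the members in between, and 2 libraries give no estimate of spread beyond their difference.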

Other observations

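Some genes outside the rule belong to the same families; they were picked with their values already seen. Aim2 and Mndal, relatives of the Ifi200 genes, measured 15.9 and 21.4 TPM and 20.1 and 24.6 TPM, near Ifi209. The immunity-related GTPase Igtp measured 2.33 and 2.04 TPM. Ifi30, a lysosomal thiol reductase gene that the annotation does not type as protein-coding, measured 8.91 and 5.17 TPM from 1031 and 443 counts. The polymorphic pseudogenes Mx2 (0.08 and 0.05 TPM) and Oas1b (0.19 and 0.23 TPM) were low, and Gbp11 had 0 counts in both libraries.

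Among signalling genes also chosen after their values were seen, Stat2 measured 1.07 and 1.29 TPM and Irf9 4.31 and 6.45 TPM, while Irf7 measured 0.40 and 0.64 TPM from 57 and 87 counts. Cxcl10, a chemokine gene, had 45 and 136 counts, higher in replicate 2, as Rsad2 and Isg15 were, and Zbp1, a nucleic acid sensor, had 94 and 26, higher in replicate 1, as Ifit3 and Oasl1 were.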
